A study of Mus musculus with 3 samples.

Results

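Retinoic acid metabolism and receptors are described here through 9 mouse genes: the retinaldehyde dehydrogenases Aldh1a1 and Aldh1a2, the retinoic acid hydroxylases Cyp26a1 and Cyp26b1, the retinoic acid receptors Rara, Rarb and Rarg, and the retinoid X receptors Rxra and Rxrb. Every probe with one of these current symbols was taken, which gave 15 of 41174 probes (24 of 43379 spots that are not controls). The genes were chosen by role with the differences between these arrays already known, that of Cyp26a1 above all, so their differences are a description and carry no test. Transcripts of peritoneal cells, labelled as macrophages, were measured on 3 one-colour Agilent whole-genome arrays, 1 for each of 3 groups of 10 male Swiss albino mice aged 8 weeks. All mice, the control included, received 125 µg of lipopolysaccharide into the peritoneum on day 0, which draws macrophages there. On day 4 the control mice were given TPA, a phorbol ester (100 ng), and the mice of the other groups TPA plus potassium dichromate, a hexavalent chromium salt, at 35 or 70 nmol. The sample labels give these doses as Cr(VI). Peritoneal lavage 4 days later gave the cells. The labels do not say whether an array held RNA of 1 animal or of a pool, and lipoic acid, which the series title names, was on none of these arrays.

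Retinoic acid is made from vitamin A in 2 oxidations, from retinol to retinaldehyde by retinol dehydrogenases and from retinaldehyde to retinoic acid by ALDH1A enzymes. CYP26 enzymes hydroxylate it and so end its action. Its receptors, RARs paired with RXRs, sit on DNA at repeats of a short half-site and switch genes on when the acid binds, and Cyp26a1 and Rarb are the classical targets. RXRs also pair with other nuclear receptors, among them PPARγ and the LXRs. In the mouse peritoneum, retinoic acid is known to maintain the transcription factor GATA6 and the programme of the large resident macrophages.

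The promoters of these classical targets show what marks them. Each line gives the 150 bases before the transcription start from RefSeq (assembly GRCm38.p6), 5′ to 3′ on the gene's strand, and the capitals are a direct repeat of receptor half-sites with 5 bases between them.
Cyp26a1: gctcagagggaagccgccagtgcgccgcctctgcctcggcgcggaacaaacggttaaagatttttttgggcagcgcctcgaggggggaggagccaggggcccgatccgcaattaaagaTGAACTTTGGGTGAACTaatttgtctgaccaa
Rarb: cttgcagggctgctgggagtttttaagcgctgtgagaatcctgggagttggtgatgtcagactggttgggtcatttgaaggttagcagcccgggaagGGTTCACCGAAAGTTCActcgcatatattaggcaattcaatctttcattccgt
The first lies at chr19:37697658-37697807 on the plus strand, and the second at chr14:16575477-16575626 on the minus strand. The half-site searched, on both strands, was TCA with a G or a T before it, then a G, then an A or a G as the first letter. In Cyp26a1 the repeat reads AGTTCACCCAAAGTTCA on the opposite strand, from 32 to 16 bases before the start. In Rarb it reads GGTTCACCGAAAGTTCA on the gene's own strand, from 53 to 37 bases before the start. Such a repeat was in 32 of 32851 promoter windows of 300 bases (0.0974%, 31 of 27025 genes). All 9 genes matched the table, with 16 windows, and the repeat was in 2 of these, those of Cyp26a1 and Rarb. A single half-site is common, at 43.7% of all windows and 7 of the 16. A match is a string of letters, not a bound site.

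Each group has a single array, which leaves no test and no replicate check for any value below. The spread given beside a signal is the scanner software's own error for that spot, which leaves out the spread between animals. A level is the log2 processed signal minus the 75th percentile of its array (8.07 for the control, 7.69 at 35 nmol and 7.74 at 70 nmol), so an equal level means a lower raw signal on the chromate arrays. Differences between arrays are differences of levels, with the errors of both spots combined. A probe was measured in a comparison when the software flagged it as well above background, and not saturated, on both arrays. Over all 18021 probes measured at 70 nmol against the control, the median difference was 0.024 and the central 95% lay between -0.71 and 0.80. At 35 nmol the median over 18303 probes was 0.022, and the central 95% lay between -0.56 and 0.60. Within an array, spots of the same probe had a median SD of 0.034 to 0.045, and different probes of a gene differed by a median of 0.15 at 70 nmol over 4094 genes. The 2 differences from the control share the control array and are not independent of each other. The arrays lie on 1 slide, so group and slide position cannot be told apart. All 8 macrophage markers were well above background on every array, which fits the label of the cells, and their summed signal was 687, 764 and 697 times the 75th percentile on the control, 35 and 70 nmol arrays. The sum includes Lyz2, whose probe was saturated (234, 307 and 297), and the 7 measured markers differed by -0.51 to 0.76 at 70 nmol. Other cells were present too. All 6 B cell markers were well above background on every array, with sums of 261, 252 and 204 on the control, 35 and 70 nmol arrays. Erythroid markers summed to 93.4, 16.3 and 53.2.

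Among the 9 genes, 1 enzyme that removes retinoic acid and 1 that makes it differed 2-fold or more. Cyp26a1, the remover, was 8.77-fold lower at 70 nmol of chromate than in the control. Aldh1a1, the maker, was 2.64-fold higher at 70 nmol and 2.18-fold higher at 35 nmol. None of the 7 measured receptor probes, of 11 in all, differed 2-fold in any pair of arrays. Of the 15 probes, 13 exceeded background on the control array (all 9 genes), 11 at 35 nmol and 11 at 70 nmol (8 genes each). The 11 measured in every pair are those of the 8 genes other than Rara. At 70 nmol against the control, 1 of these 11 was 2-fold or more above and 1 as far below, where 1.39% and 1.08% of all measured probes were. At 35 nmol 1 was higher and 0 lower, against 0.956% and 0.333% of all probes. Between the doses 0 were higher and 1 was lower at 70 nmol, against 0.856% and 0.597%. These contrasts were known when the genes were chosen, so nothing is read from these shares. The other 9 probes stayed within 0.5 of the control at both doses.

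**Figure D1:**
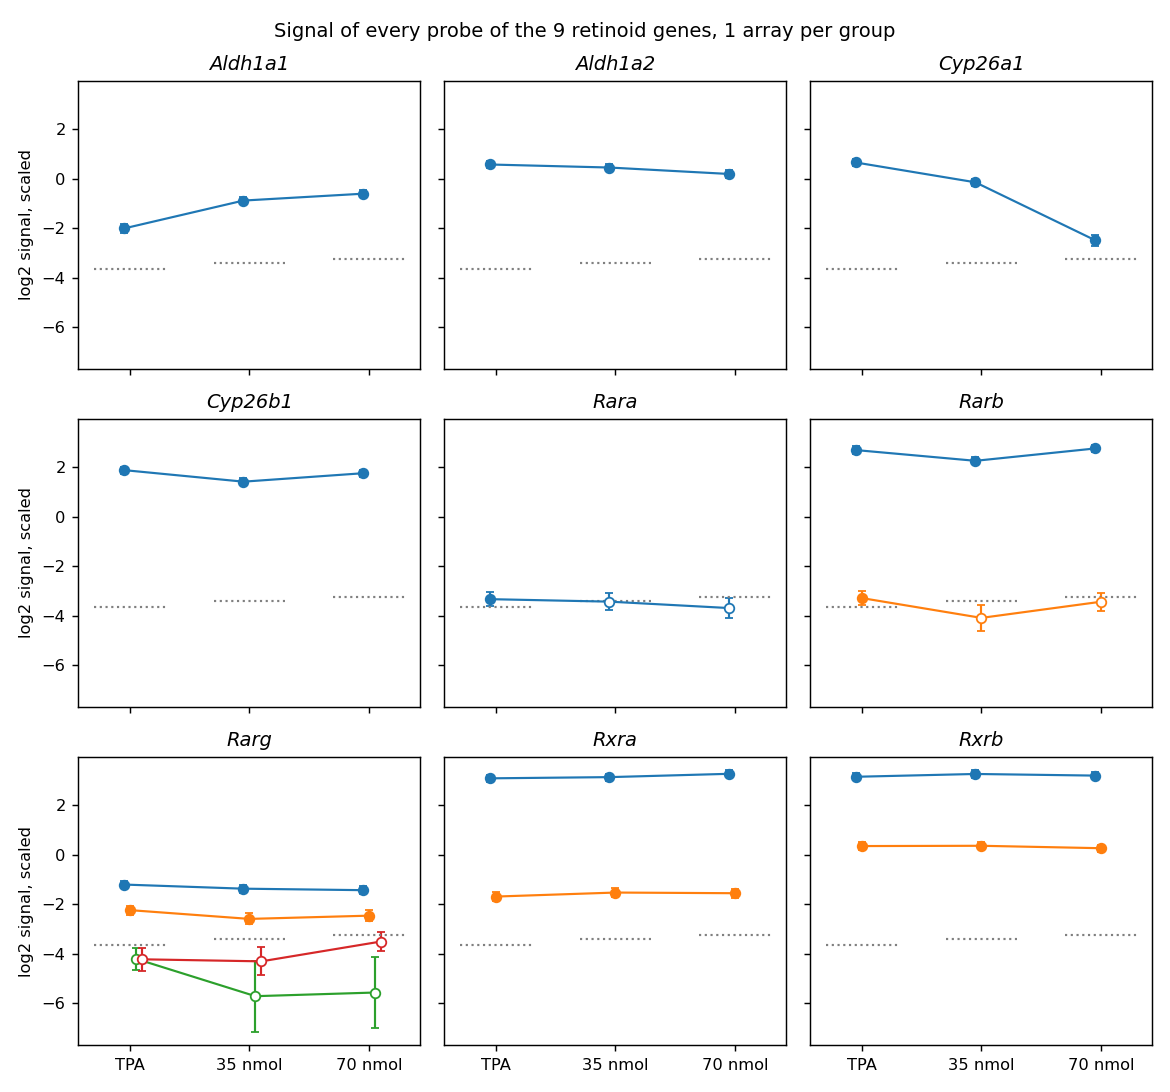
Level (log2 processed signal minus the array's 75th percentile) of each of the 15 probes on the 3 arrays, 1 panel per gene and 1 colour per probe, with the scanner software's error as bars. Filled points are well above background, open points are not, and a dotted line marks the dimmest level so flagged on each array. Cyp26a1 goes from 0.65 to -2.49, Aldh1a1 from -2.01 to -0.61, and the brighter Rxra and Rxrb probes stay nearly level. The brighter Rarb probe is lowest at 35 nmol (2.68, 2.25 and 2.75).

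The largest difference was that of Cyp26a1, the hydroxylase that clears retinoic acid and is itself induced by it. Its single probe, A_52_P382149 (chromosome 19, 37766220 to 37766279, build mm8), gave a processed signal of 421 ± 42.3 in the control, 185 ± 18.9 at 35 nmol and 38.3 ± 5.93 at 70 nmol. The signal was highest in the control, intermediate at 35 nmol and lowest at 70 nmol, with no overlap of the errors. As levels these were 0.65, -0.15 and -2.49. The difference from the control was -0.80 ± 0.21 at 35 nmol and -3.13 ± 0.27 at 70 nmol, and the 70 nmol array lay 2.33 below the 35 nmol array (-2.33 ± 0.27, 5.04-fold). Of the 18021 probes measured at 70 nmol, 2 lay at or below this difference, Cyp26a1 included. At 35 nmol 133 of 18303 did. At 70 nmol the probe stood 0.77 above the dimmest level flagged as well above background there, compared with 4.29 in the control. A signal so close to background makes the size of the fold uncertain. With normexp background correction, which adds an offset, the difference at 70 nmol was -2.02. The gene has no other probe and 1 spot per array, so neither a repeated spot nor another probe bears on it.

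Cyp26b1, the related hydroxylase, stayed close to the control at 70 nmol. Its probe A_51_P501844 (chromosome 6, 84537616 to 84537675, mm8) gave 986 ± 98.7 in the control, 546 ± 54.7 at 35 nmol and 720 ± 72.1 at 70 nmol. The control was brightest before scaling. After scaling the control and 70 nmol levels were close (1.87 and 1.75), and the 35 nmol level was the lowest (1.41). The difference from the control was -0.47 ± 0.20 at 35 nmol and -0.13 ± 0.20 at 70 nmol, the latter within the scanner error. The difference of Cyp26b1 lay 3.01 above that of Cyp26a1 at 70 nmol and 0.33 above it at 35 nmol. Such gaps do not depend on the scaling factor of an array, since both probes lie on the same ones, but they do depend on the background correction. With normexp at 70 nmol Cyp26b1 differed by -0.15 and Cyp26a1 by -2.02, and the gaps of Cyp26a1 to Rarb and Aldh1a1 given below are smaller too (0.03 and 0.91 for those genes).

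Of the enzymes that make the acid, Aldh1a1, a cytosolic retinaldehyde dehydrogenase, was higher on both chromate arrays. Its probe A_51_P334942 (chromosome 19, 20710371 to 20710430, mm8) gave 66.6 ± 8.43 in the control, 111 ± 12.1 at 35 nmol and 140 ± 14.9 at 70 nmol. The control was the lowest of the 3 and lay apart from the chromate arrays, which were closer to each other. The levels were -2.01, -0.89 and -0.61. The difference from the control was 1.13 ± 0.24 at 35 nmol and 1.40 ± 0.24 at 70 nmol, and the doses differed by 0.28 ± 0.22. Of the measured probes, 133 of 18303 at 35 nmol and 97 of 18021 at 70 nmol lay at or above these values. With normexp correction the differences were 0.66 and 0.91, both under 2-fold. A near-identical gene, Aldh1a7, has a probe that was not well above background on any array. Whether its transcripts also bind the Aldh1a1 probe was not tested.

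Aldh1a2, the main retinaldehyde dehydrogenase of the embryo and one that mesothelium also makes, was slightly lower on the chromate arrays. Probe A_52_P58145 (chromosome 9, 71094684 to 71094743, mm8) gave 398 ± 40.0 in the control, 280 ± 28.3 at 35 nmol and 243 ± 24.8 at 70 nmol. The scaled levels of 0.57, 0.44 and 0.18 were all within 0.4 of each other. The difference was -0.12 ± 0.21 at 35 nmol and -0.38 ± 0.21 at 70 nmol, so the first lay within the scanner error and the second beyond it. The difference of Aldh1a1 lay 1.78 above that of Aldh1a2 at 70 nmol and 1.25 above it at 35 nmol. Aldh1a1 and Cyp26a1, the maker and the remover, lay 4.53 apart in their differences at 70 nmol and 1.93 apart at 35 nmol. The same gap between the doses was 2.61.

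**Figure D2:**
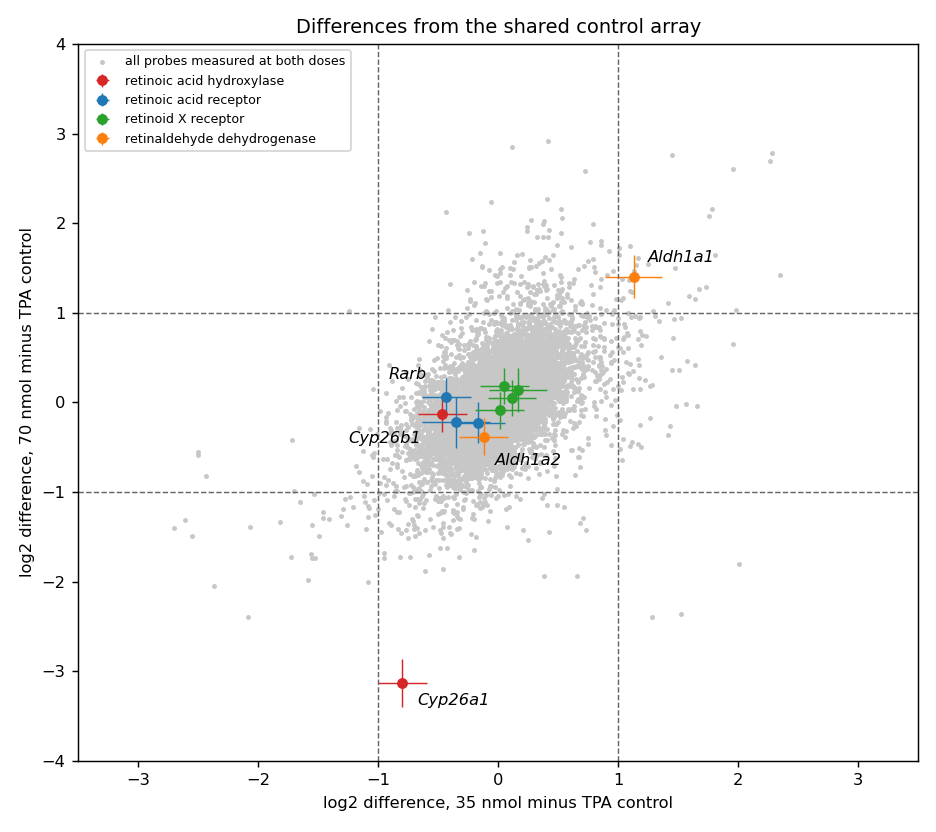
Log2 difference from the control array at 35 nmol (x axis) and at 70 nmol (y axis) for the 11 probes measured on all arrays, coloured by role with the combined scanner errors as bars, over all 17662 probes measured at both doses in grey (1 lies outside the plotted range). The dashed lines mark 2-fold, and both axes share the control array, so the slope of the grey cloud carries no result. Cyp26a1 lies below the cloud at -3.13, Aldh1a1 lies above 1 on both axes, and the receptors lie near the origin.

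The array holds 7 probes for the retinoic acid receptors. Measured in every pair were A_51_P202440 of Rarb and A_51_P372853 and A_51_P372858 of Rarg. Rarb, the receptor gene induced by its own ligand, has a probe, A_51_P202440 (chromosome 14, 15224264 to 15224323, mm8), that is spotted 10 times on each array. The 10 control spots ran from 1660 to 1783 with a median of 1731, and the 10 spots at 35 nmol from 936 to 1019 with a median of 984. At 70 nmol 8 spots were used and 2 were left out as outliers, and the signals ran from 1413 to 1468 with a median of 1435. The spots of the 3 arrays did not overlap before scaling. After scaling the levels were 2.68, 2.25 and 2.75, with an SD between spots of 0.028, 0.043 and 0.022, so the 35 nmol array was the lowest and the other arrays were close. The difference was -0.43 at 35 nmol, 0.06 at 70 nmol and 0.50 between the doses, each with a scanner error of 0.20. Rarb and Cyp26a1, whose promoters carry the repeat printed above, thus stood at 0.06 and -3.13 relative to the control at 70 nmol. Their gap was 3.20 at 70 nmol and 0.37 at 35 nmol. With spike-in scaling, which moves every difference at 70 nmol by -0.36, Rarb differed by -0.30.

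The other Rarb probe, A_52_P495759, whose listed position runs over 26709 bases (chromosome 14, 15341785 to 15368493, mm8) and so crosses introns, was dim. It gave 27.6 in the control, where it was well above background, and 12.1 and 19.9 on the chromate arrays, where it was not. The control was at least 1.10-fold higher than the 35 nmol array by this probe, a bound too small to tell the arrays apart. Rara, the broadly expressed receptor, was as dim. Its probe A_51_P389724 (chromosome 11, 98786635 to 98786694, mm8) gave 26.8 ± 5.05 in the control, 19.1 ± 4.38 at 35 nmol and 16.6 ± 4.79 at 70 nmol. Only the control was well above background, by a bound of at least 1.06-fold over 35 nmol, and no bound could be set at 70 nmol.

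Rarg, the receptor best known from skin and cartilage, has 4 probes. The brightest, A_51_P372853 (chromosome 15, 102063912 to 102063971, mm8), gave 117 ± 12.4, 79.5 ± 8.87 and 79.4 ± 9.11 on the control, 35 and 70 nmol arrays. Its scaled difference was -0.17 at 35 nmol and -0.23 at 70 nmol, with errors of 0.22 and 0.23. The next, A_51_P372858, whose listed position spans 2641 bases (chromosome 15, 102064224 to 102066864, mm8), gave 57.1 ± 7.18, 34.2 ± 5.25 and 39.0 ± 5.93. It differed by -0.35 ± 0.29 and -0.22 ± 0.28, so these probes gave like values at 70 nmol. There the difference of the brightest probe was about equal to its error, and that of A_51_P372858 lay within it. By normexp the latter turned to 0.05 at 70 nmol. The remaining probes, A_52_P380418 and A_52_P26409, gave signals from 3.94 to 18.9 and were not well above background on any array.

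The retinoid X receptors are shared partners of the RARs and of other nuclear receptors. Rxra and Rxrb stayed within the scanner error of the control with the main scaling. Rxrg is given with the other receptors below. The brighter Rxra probe, A_52_P188139 (chromosome 2, 27584900 to 27584959, mm8), gave 2269 ± 227 in the control, 1795 ± 180 at 35 nmol and 2051 ± 205 at 70 nmol. Its scaled difference was 0.05 at 35 nmol and 0.18 at 70 nmol, within its error of 0.20. The dimmer Rxra probe, A_51_P307370 (chromosome 2, 27581805 to 27581864, mm8), gave 83.4 ± 9.84, 71.4 ± 8.62 and 73.0 ± 8.81, and differed by 0.16 and 0.13. Both probes of the gene were thus slightly above the control at both doses, and neither by more than its error. For Rxrb, probe A_52_P519689 (chromosome 17, 33648505 to 33648564, mm8) gave 2370 ± 237, 1960 ± 196 and 1951 ± 195, with differences of 0.11 and 0.05. Probe A_51_P314830 (chromosome 17, 33647199 to 33647373, mm8) gave 342 ± 34.5, 264 ± 26.6 and 257 ± 26.1, with differences of 0.01 and -0.09. Over the 7 measured receptor probes of 4 genes, differences ran from -0.23 to 0.18 at 70 nmol, from -0.43 to 0.16 at 35 nmol and from -0.10 to 0.50 between the doses. Their signs depend on the scaling: with spike-in scaling the 4 Rxra and Rxrb probes differed at 70 nmol by -0.18, -0.23, -0.31 and -0.45. These values do not show that the receptors were equal on the arrays. They show only that no difference beyond the errors was seen for Rxra and Rxrb with the main scaling.

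Transcripts of cells other than macrophages moved with the groups, and in these bulk samples fewer cells of a type and less RNA per cell cannot be told apart. The summed signal of 12 hepatocyte markers, in units of the array's 75th percentile, was 20.8 in the control, 60.6 at 35 nmol and 0.547 at 70 nmol, with 9, 10 and 1 of them well above background. This sum was higher than the control at 35 nmol and lower at 70 nmol. Cyp26a1, which the liver also expresses, was lower than the control at both doses. The 7 mast cell markers, all well above background on every array, summed to 35.0, 23.0 and 13.7, and their median difference was -0.82 at 35 nmol and -1.42 at 70 nmol. The order of these sums is that of Cyp26a1, and Cyp26a1 was further from the control at 70 nmol than each of the 7 (lowest -1.74). The part of hepatocyte and mast cell transcripts in the Cyp26a1 difference was not tested. Fibroblast markers (8 genes) summed to 10.1, 11.4 and 33.4, and 6, 6 and 8 of them were well above background. Their median difference was 0.17 at 35 nmol and 1.40 at 70 nmol, and Aldh1a1 differed by 1.13 and 1.40. Mesothelial markers (9 genes) summed to 0.925, 1.07 and 1.44, and Upk3b, Upk1b, Lrrn4, Muc16 and Gpm6a were not well above background on any array. The part of fibroblast and mesothelial transcripts in the Aldh1a1 and Aldh1a2 values was not tested.

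**Figure D3:**
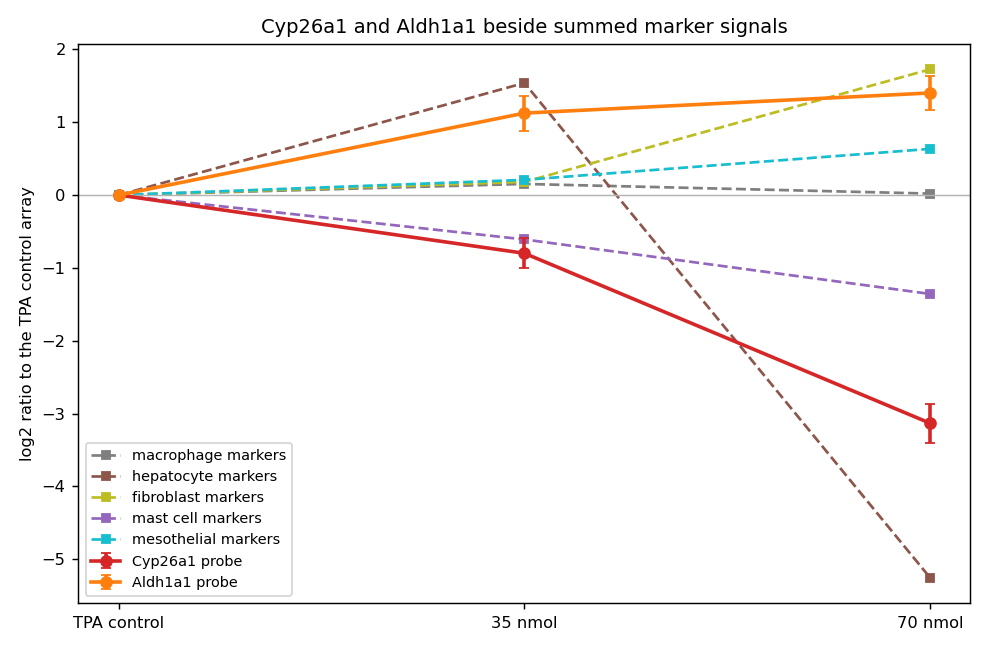
Log2 ratio to the control array of the Cyp26a1 and Aldh1a1 signals (solid lines, scanner error as bars) and of the summed signals of 5 marker lists (dashed lines), on the 3 arrays. The hepatocyte sum at 70 nmol holds 1 of 12 genes above background. The macrophage sum, which includes the saturated Lyz2 probe, stays near 0, mast cell markers and Cyp26a1 go down at both doses, and fibroblast markers go up at 70 nmol.

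Beyond the 9 genes, 122 genes of retinoid handling were placed in 8 lists, of which 120 are on the array and 31 were not well above background on any array. Each gene takes its brightest probe. At 70 nmol against the control 2 of 73 measured genes lay 2-fold or more above and 7 below, where 1.63% and 1.08% of all 12541 measured genes were, and the median was -0.010 against 0.038 for all genes. At 35 nmol 3 of 79 were higher and 0 lower, against 1.12% and 0.298% of 12733 genes, with a median of 0.038 against 0.039. Between the doses 1 of 72 was higher and 4 were lower at 70 nmol, against 0.92% and 0.718% of 12388 genes. The lists were drawn up with results of these arrays known, so nothing is read from these shares. The shares over all genes given here also stand beside the counts of each list below.

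Genes of retinol uptake and storage held 1 of 7 measured members past 2-fold at 35 nmol and 0 of 6 at 70 nmol, with medians of 0.20 and -0.05. The 1 gene was Rbp4, the plasma carrier of retinol made in liver, with levels of -0.32 in the control and 1.80 at 35 nmol. At 70 nmol Rbp4 was not well above background, at least 7.66-fold below the control. Lpl, the lipoprotein lipase, differed by 0.30 and -0.39, and the triglyceride lipase Pnpla2 by 0.32 and 0.24.

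Genes of the step between retinol and retinaldehyde held 1 of 12 measured members past 2-fold at 35 nmol and 0 of 10 at 70 nmol, with medians of 0.01 and -0.01. Rdh7, a retinol dehydrogenase of the liver, differed by 1.31 at 35 nmol and was at least 2.10-fold below the control at 70 nmol. Rdh13 differed by 0.48 at 70 nmol and Rdh5 by 0.47 at 35 nmol. Dhrs3, a retinaldehyde reductase that retinoic acid induces, differed by -0.07 at 35 nmol and -0.22 at 70 nmol, and its other probe by 0.01 and -0.27. Rdh10, the main retinol dehydrogenase of the embryo, was measured on all arrays with differences of -0.19 and -0.01. Adh1, an alcohol dehydrogenase rich in liver, was not well above background in the control or at 70 nmol and was at least 7.90-fold above the control at 35 nmol. Rbp4 and Rdh7 took the order of the hepatocyte sum, high at 35 nmol and low at 70 nmol. The part of liver transcripts in their values was not tested.

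In the list of other oxidation and clearance genes, 1 of 4 measured members was past 2-fold at 35 nmol and 0 of 3 at 70 nmol. Aldh8a1, a dehydrogenase of liver and kidney, differed by 1.01 and -0.20. Cyp3a11 differed by 0.96 at 35 nmol and was not well above background at 70 nmol. Cyp1a1 was well above background at 35 nmol alone, at least 2.02-fold above the control. Cyp2s1 differed by 0.44 and 0.60, and Por, the electron donor of all microsomal P450 enzymes including CYP26A1, by 0.32 and -0.06. Aldh1a3, the remaining ALDH1A maker of retinoic acid, was not well above background on any array, nor were the carriers Crabp1, Crabp2 and Fabp5.

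Among other nuclear receptors and RXR partners, 2 of 10 measured genes reached 2-fold above the control at 70 nmol and 0 of 12 at 35 nmol, with medians of 0.22 and 0.13. These were Pparg, the fatty acid receptor, with levels of -1.58, -1.34 and -0.28 on the control, 35 and 70 nmol arrays, and Nr1h3, which encodes LXRα, with levels of 1.42, 1.60 and 2.45. Each was near the control at 35 nmol (0.25 and 0.18) and above it at 70 nmol (1.30 and 1.03), while their partners Rxra and Rxrb were within the scanner error of the control. With normexp or spike-in scaling 0 genes of the lists were 2-fold higher at 70 nmol, so both lost the call, and 1 gene was 2-fold higher with quantile normalisation, with cyclic loess or with scaling on the 75th percentile of detected probes. Nr4a2 differed by 0.94 and 0.68. Nr2c2 differed by -0.44 and -0.55, but its other probe differed by 0.17 and -0.36. Rxrg, the third RXR, had levels of -1.68 and -1.72 in the control and at 35 nmol, and at 70 nmol was not well above background, at least 2.98-fold below the control. Of the coregulators that RAR and RXR recruit, 0 of 19 measured genes were past 2-fold at either dose, with medians of 0.09 at 70 nmol and 0.00 at 35 nmol. Nrip1, a corepressor that retinoic acid induces, was the lowest at 70 nmol (-0.68), and its other probes gave -0.70 and -0.66. Tbl1xr1 differed by -0.37 at 70 nmol, and its other probes disagreed (0.38 and -0.23). Tbl1x differed by -0.32 at 70 nmol.

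Of the genes that retinoic acid is known to induce, 14 were measured at each dose. At 70 nmol 1 was at least 2-fold lower and 0 higher, with a median of -0.06, and at 35 nmol 0 were past 2-fold, with a median of 0.17. The 1 measured gene was Pdk4, a kinase that inhibits pyruvate dehydrogenase, with levels of -0.67, -0.76 and -1.99. Ucp1, the uncoupling protein of brown fat, differed by 0.39 at 35 nmol and was not well above background at 70 nmol, at least 2.25-fold below the control. Rarres2, which encodes chemerin, differed by 0.88 at 35 nmol and 0.58 at 70 nmol, and its other probe by 0.86 and 0.74. Rai14 differed by 0.64 and 0.47, but its other probes gave 0.08 and -0.20 at 70 nmol. Tgm2, the transglutaminase, was bright on every array (levels of 4.71, 5.04 and 5.21) and differed by 0.33 and 0.50. Cyp26a1, at -3.13, thus lay below the 14 measured genes of this list at 70 nmol, of which the lowest was Pdk4 at -1.32.

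The list with the lowest median at 70 nmol was that of peritoneal macrophage genes known to depend on retinoids or GATA6. At 70 nmol 6 of 14 measured genes lay 2-fold or more below the control and 0 above, where 1.08% and 1.63% of all measured genes were. Of the 14, 13 lay below 0, and the median was -0.96 against 0.038 for all genes. At 35 nmol 0 of 14 were past 2-fold, 12 lay below 0, and the median was -0.25 against 0.039. Between the doses the median was -0.78, with 2 genes at least 2-fold lower at 70 nmol. The list was drawn up with results of these arrays known, so nothing is read from these shares and medians. The lowest were Ltbp1, which holds latent TGFβ in the matrix (-1.39, other probe -0.54), Garnl3 (-1.30, other probe -1.23), Thbs1, which activates TGFβ (-1.29, other probes -1.23 and -1.11), and Nt5e, the ecto-nucleotidase CD73 (-1.15). Tgfb2, the ligand itself, had levels of 3.76, 3.47 and 3.01, a difference of -0.75 at 70 nmol. Of the 14 measured genes, the 1 above the control at 70 nmol was Arg1, the arginase, at 0.79 (0.73 at 35 nmol). Wt1, a transcription factor of mesothelium that was also placed in the list, was well above background at 70 nmol alone. There it was at least 1.46-fold above the control. Gata6, a factor on which part of the list is known to depend, had levels of 3.76, 3.48 and 2.68 by its brightest probe. Its 2 other probes differed at 70 nmol by -1.02 and 0.56. The list shares Gata6, Garnl3, Nt5e, F5, Icam2, Itga6 and Selp with the marker list of large peritoneal macrophages, whose 9 measured genes had medians of -0.98 at 70 nmol and -0.22 at 35 nmol. The share of such cells in each sample was not measured.

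**Figure D4:**
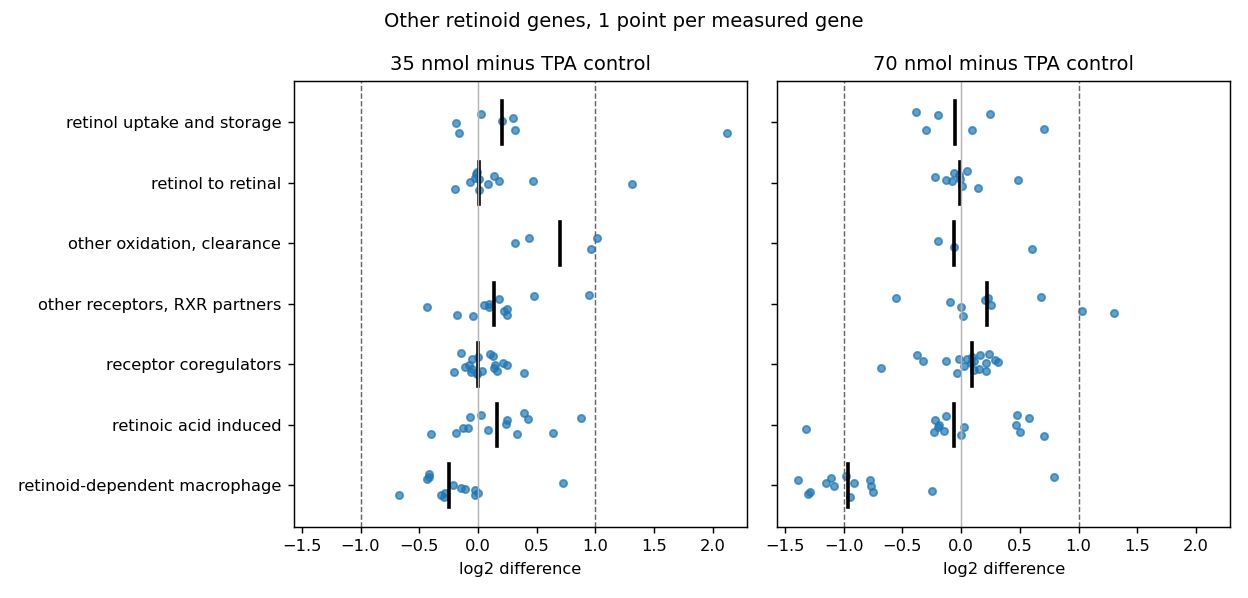
Log2 difference from the control array of each measured gene (points) in 7 lists of retinoid genes, at 35 nmol (left) and 70 nmol (right), with the list median as a black bar and 2-fold as dashed lines. Carriers of retinoic acid have no measured gene and are not drawn. The retinoid-dependent macrophage genes have a median of -0.25 at 35 nmol and -0.96 at 70 nmol, and the other drawn lists have medians between -0.06 and 0.22 at 70 nmol.

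The genes most like the enzymes were found by the distance over the 2 differences from the control, among 11014 genes measured on all 3 arrays. Nearest to Cyp26a1 were Orm3 (distance 1.16), Adgb (1.27), Dgkg (1.32), Cpa3 (1.40) and Cma1 (1.41). None was close: Orm3 differed by -1.09 and -2.01, where Cyp26a1 differed by -0.80 and -3.13. Cpa3 and Cma1 belong to the mast cell list. Nearest to Aldh1a1 were Kazald1 (0.051), Olr1 (0.059), Bgn (0.13), Retnla (0.17) and Ifi206 (0.18). Kazald1 differed by 1.09 and 1.37, next to 1.13 and 1.40 for Aldh1a1. These distances rest on 3 arrays of which the control is shared, and describe those arrays alone.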

How the data were processed

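RNA of peritoneal cells was hybridised on 3 one-colour arrays, 1 per group. Per the file headers, the authors read spot intensities with Agilent Feature Extraction 10.5.1.1, which subtracts background, and probe positions are on mm8. The value table that the authors deposited is in log2. Compared with the scanner signals, each of its columns is the log2 processed signal minus a constant (8.00, 7.61 and 7.67), within 0.01 for 99.8% to 99.9% of probes above background. Its medians are -3.60, -3.74 and -3.78, so scale and direction are known and genes were not centred.

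From the deposited intensities, the log2 processed signal was scaled on each array's 75th percentile, outlier spots were left out and spots of a probe averaged. Of 41174 probes, 20200 (49.1%), 18910 (45.9%) and 18564 (45.1%) were well above background (control, 35 and 70 nmol). The number of arrays limits the precision. Probes were named through the RefSeq table of GRCm38.p6 (24375 by accession, 8727 by symbol or synonym, and 8072 kept the file's name), the members 12 by accession and 3 by symbol. Neither an mm8 genome nor its annotation was used, so exons are not given. A bound takes as the dim side the probe's own level or the lowest level flagged there, whichever is higher.

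A difference was counted at 2-fold or more, with no test. Members and lists were chosen with earlier results of these data known. Genes named are all members, the 4 largest differences of each list, the 5 nearest genes of members past 2-fold, and markers beside a member result. Some of these are not reported here. Rdh10, Tgm2, Tgfb2, Arg1, Gata6, Rxrg, Adh1, Cyp1a1, Ucp1, Wt1, Lyz2 and genes named as not above background were added after their values were seen. Alternatives were normexp correction (offset 50), quantile and cyclic loess normalisation, other scalings, spike-in scaling (the 4 of 10 such probes with log2 signals from 8 to 14), the authors' table, other filters on dim probes, folds of 1.5 and 3, and averaging a gene's probes. Steps were tested on simulated data. Python 3.11.15 (numpy 2.4.6, pandas 2.3.3, matplotlib 3.10.9) and R 4.3.3 (limma 3.58.1) were used.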

Additional observations from a re-analysis of the deposited data

Results flagged for a closer look

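Among the other retinoid genes, 2 lay at least 2-fold above the control at 35 nmol and at least 2-fold below it at 70 nmol. Rbp4 differed by 2.12 at 35 nmol and was at least 7.66-fold below the control at 70 nmol, where it was not well above background. Rdh7 differed by 1.31 at 35 nmol and was at least 2.10-fold below the control at 70 nmol. Both took the order of the summed hepatocyte markers (20.8, 60.6 and 0.547 on the control, 35 and 70 nmol arrays). The part of liver transcripts in their values was not tested. The difference between the doses was not tested either, since each group has 1 array.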

How the results depend on the processing

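Each group has 1 array, so the spread between animals is unknown and limits every value. No paired analysis was possible because the labels carry no replicate numbers and each group has 1 array. Of 231 recomputed member differences (33 differences under 7 alternatives), 204 moved by less than their scanner error, 27 moved by more, and no difference beyond its error turned its sign. Cyp26a1 ranged from -3.49 to -2.02 at 70 nmol, from -1.22 to -0.66 at 35 nmol and from -2.36 to -1.36 between the doses, and Aldh1a1 from 0.91 to 1.46 and from 0.66 to 1.19 at 70 and 35 nmol. Of the 2 member probes past 2-fold at 70 nmol, normexp left 1, the 3-fold threshold 1 and the stricter filter on dim probes 0. Of the 1 at 35 nmol, normexp, the stricter filter and the 3-fold threshold each left 0, and the 1.5-fold threshold gave 2. Of the 1 between the doses, the stricter filter left 0. It keeps only probes at least 4 times the lowest level, which removes Cyp26a1 at 70 nmol and Aldh1a1 in the control. Spike-in scaling moved all differences by -0.36 at 70 nmol, -0.42 at 35 nmol and 0.06 between the doses. Over all probes it gave 102 higher and 595 lower at 70 nmol (250 and 194 in the main setting) and 86 higher and 427 lower at 35 nmol (175 and 61). Under it Cyp26a1 was past 2-fold at 35 nmol (-1.22) and Aldh1a1 was not (0.70). Of the retinoid lists, 9 genes past 2-fold at 70 nmol became 14 with spike-in scaling. The 3 genes at 35 nmol became 1 with normexp and 5 with quantile or cyclic loess normalisation. The 5 between the doses became 1 with normexp, 8 with scaling on the median of detected probes and 3 with the mean over a gene's probes. Beyond the filter and the shift, the cause was not tested.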
